A study of Rattus norvegicus with 22 samples.

Results

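The genes described here carry out antigen presentation in the kidney of PKD/Mhm (Cy/+) rats. They are the MHC class II chains RT1-Da, RT1-Db1, RT1-Ba and RT1-Bb, their chaperone Cd74, their transactivator Ciita, and the class I genes B2m, Tap1 and Tap2. They were listed by symbol and matched to the files through their Entrez identifiers, and all 9 were found among the 17334 genes. The rats are heterozygous for Cy, a missense change in Anks6 that leads to cystic kidneys, and all 22 animals carry it, the untreated rats included. The males were followed to an age of 8 months, with monthly injections for 6 months in the treated groups. The i.p. ASC group (6 rats) and the i.v. ASC group (6 rats) received human adipose-derived stromal cells into the peritoneum or the vein, and the ASC-derived CM group (4 rats) received the medium such cells had conditioned. The 6 untreated rats served as controls. Total RNA from whole kidney tissue of the left kidney was sequenced, and how much of the organ was used is not stated. No rat without the Cy allele and no rat injected with a vehicle is among the samples used here, and other groups of the study were not analysed here. The sources differ on how the conditioned medium was given, by vein or into the peritoneum, so its route is not stated further.

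MHC class II molecules show peptides from the endosome to CD4 T cells and are pairs of an alpha and a beta chain, RT1-Da with RT1-Db1 for the rat RT1.D molecule and RT1-Ba with RT1-Bb for RT1.B. Cd74, the invariant chain, fills the groove of the new pair and guides it to the endosome, and Ciita is the coactivator that switches on the class II genes together with Cd74. MHC class I molecules show peptides from the cytosol to CD8 T cells, with B2m as their light chain and Tap1 and Tap2 as the peptide pump of the endoplasmic reticulum. Class II genes are at home in dendritic cells, B cells and macrophages, and in the kidney tubule cells can switch them on in inflammation, while nearly all cells carry class I.

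The promoters are shown because they are where Ciita and the interferon factors are known to act on these genes. An entry in the RefSeq promoter table of the rat build GRCr8 was found for 8 of the 9 genes, Ciita being the other. The 250 bases before each start were searched on both strands for CCAAT (the Y box), AACNGATG (a core of the X box), TTCNNNGAA (a gamma activated site) and GAAANNGAA (an interferon response element). The last pair can share bases, but no gene listed here held the gamma activated pattern. In the class II chains and Cd74 the capitals below mark the Y box and X box letters.
RT1-Da: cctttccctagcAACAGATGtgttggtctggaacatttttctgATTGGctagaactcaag
RT1-Db1: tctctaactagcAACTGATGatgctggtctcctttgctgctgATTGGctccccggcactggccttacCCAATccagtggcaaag
RT1-Ba: gggaattttctgATTGGtctgtcgggttt
RT1-Bb: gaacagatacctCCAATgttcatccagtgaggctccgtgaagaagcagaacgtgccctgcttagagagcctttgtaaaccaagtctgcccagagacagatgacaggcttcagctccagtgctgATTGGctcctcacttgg
Cd74: ggccctggccagCCAATgggatcatgcag
The windows lie at chr20:4515323-4515382 on the plus strand, chr20:4560201-4560284 on the minus strand, chr20:4577002-4577030 on the plus strand, chr20:4604163-4604302 on the minus strand and chr18:56527005-56527033 on the plus strand. The X box letters stood in RT1-Da and RT1-Db1, with 23 and 22 bases between them and the next Y box. Y box letters stood in all 5 of these windows and also in B2m, so in 6 of the 8 promoters. In the class I genes the capitals mark the interferon response element and, for B2m, the Y box.
B2m: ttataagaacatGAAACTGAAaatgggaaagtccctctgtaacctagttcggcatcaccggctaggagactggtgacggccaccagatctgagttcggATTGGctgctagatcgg
Tap1: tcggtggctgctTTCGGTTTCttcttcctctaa
Tap2: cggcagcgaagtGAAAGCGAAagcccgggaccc
These windows lie at chr3:129549168-129549282 on the plus strand, chr20:4668643-4668675 on the minus strand and chr20:4652317-4652349 on the minus strand. The interferon letters were found in B2m, Tap1 and Tap2 and in none of the class II promoters. Over all 27457 promoters of the table, 34.3% held the Y box letters, 2.11% the X box core, 7.52% the gamma activated pattern and 7.99% the interferon element. A match is a run of letters and not a binding site. Only exact letters were searched for, so a promoter without a match can still hold a near match. The RT1-Bb window, for example, holds letters that differ from the X box core in a single base.

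Each rat had 12195682 to 14734772 estimated reads, and the tubule gene Umod, a marker of the labelled tissue, was present in every rat, from 847.2 to 4445 TPM. TPM, a unit that divides reads by transcript length and scales each rat to a common total, was used for levels, since only such a unit lets different genes be set side by side. Urothelium markers stood apart in the i.v. ASC group, where their summed level ran from 2.383 to 541.9 TPM against 1.945 to 16.39 TPM in untreated rats. All 5 urothelium markers were among the 11 genes past the threshold in the test for any difference among the 4 groups. Within the MHC, untreated rats 1 and 24 and i.v. ASC rat 10 stood apart from the other 19 rats. They did so in their class I heavy chains and in the balance of the RT1.D chains, as described below. The fold changes, the relations between the genes over all rats and the ratios of the chains are also given without them.

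Reads that fit several genes or transcripts were shared out by the authors' program, which leaves counts that are not whole numbers. RT1-Da, RT1-Ba, B2m and Ciita had whole counts (within 0.001) in all 22 rats, the pattern of genes whose reads were not divided with another gene. RT1-Bb had a count that was not whole in 7 rats, Cd74 in 16, RT1-Db1 in 18, and Tap1 and Tap2 in 22. The second D beta gene, RT1-Db2, which could take reads from RT1-Db1, held a mean of 29.33 reads against 7660 for RT1-Db1. Its counts lay at most 0.0282 from a whole number, those of RT1-Db1 up to 0.5. RT1-Db1 and RT1-Bb had split counts in the same rats at times, 10973.5 and 14542.5 in i.p. ASC rat 6 and 4833.48 and 6607.52 in i.v. ASC rat 9. Whether these members shared reads with each other was not tested. For Tap1 and Tap2 the counts do not show with which genes or transcripts reads were shared, and their levels carry that uncertainty. Among the class I heavy chains RT1-A1, RT1-A2 and most RT1-CE genes also had split counts in all 22 rats. As these are near-identical genes, the sum over 17 genes is used for them.

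Cd74 was among the most abundant RNAs of these kidneys, with a mean of 3718 TPM over the 22 rats and the 99.9th percentile of all genes. Untreated rats ran from 2992 to 4401 TPM with a median of 3568. The i.p. ASC rats ran from 2366 to 5450 TPM (median 3802) and the i.v. ASC rats from 1429 to 5048 TPM (median 3758). The 4 ASC-derived CM rats stood at 2108, 3988, 4704 and 5531 TPM. Every treated group thus overlapped the untreated rats and reached past them at both ends. In whole kidney tissue, fewer cells that carry a gene and less of its RNA per cell cannot be told apart.

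RT1-Da, the alpha chain of RT1.D, ran from 758.5 to 1167 TPM in untreated rats, with a median of 945.9. It ran from 605.5 to 1456 TPM after i.p. ASC (median 1028), from 346.6 to 1333 TPM after i.v. ASC (median 990.8), and stood at 540.2, 999.9, 1189 and 1460 TPM after ASC-derived CM. The lowest rat of each treated group lay below the untreated range and the highest above it. The RT1.B alpha chain RT1-Ba had nearly the same level, with a mean of 939.2 TPM over all rats against 968.3 for RT1-Da, and ran from 323.5 to 1413 TPM. The beta chains were lower, RT1-Db1 at a mean of 714.3 TPM (245.0 to 1043) and RT1-Bb at 720.1 TPM (266.3 to 1068). By mean level the order of the chains was RT1-Da, RT1-Ba, RT1-Bb and RT1-Db1. Within rats the RT1-Da to RT1-Ba ratio ran from 0.93 to 1.12, with a mean of 1.036 (SD 0.046). Differences between the chains were not tested. Together the 4 chains took 0.122% (i.v. ASC rat 3) to 0.514% (ASC-derived CM rat 21) of a kidney's summed TPM.

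Ciita was far lower than the genes it drives, at a mean of 13.6 TPM, the 55.4th percentile of all genes. It ran from 11.02 to 17.93 TPM in untreated rats (median 13.29), from 7.395 to 16.8 TPM after i.p. ASC (median 13.86) and from 3.685 to 20.64 TPM after i.v. ASC (median 14.44). The ASC-derived CM rats stood at 8.241, 12.76, 17.41 and 21.8 TPM. Of the 9 genes Ciita had the widest range over all rats, 5.92 times from lowest to highest, against 1.77 times for B2m.

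B2m, the class I light chain, was the second most abundant of the genes, at a mean of 1716 TPM, and the most even. Untreated rats ran from 1581 to 2008 TPM with a median of 1800. The i.p. ASC rats ran from 1395 to 1956 TPM (median 1787), the i.v. ASC rats from 1177 to 2089 TPM (median 1730), and the ASC-derived CM rats stood at 1249, 1592, 1831 and 1884 TPM. Here the i.p. ASC and ASC-derived CM rats reached below the untreated range but not above it.

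The pump genes Tap1 and Tap2 were close to each other, at means of 53.4 and 49.6 TPM, and their ratio ran from 0.86 to 1.22. Tap1 ran from 52.16 to 76.3 TPM in untreated rats (median 54.85), from 36.93 to 59.62 TPM after i.p. ASC (median 57.12) and from 28.71 to 66.45 TPM after i.v. ASC (median 51.25). It stood at 32.36, 52.34, 65.7 and 72.78 TPM after ASC-derived CM. The upper end of the untreated range was set by untreated rat 23 alone, and the next untreated rat stood at 55.52 TPM. Tap2 ran from 44.49 to 62.78 TPM in untreated rats (median 56.74), from 33.88 to 59.43 TPM after i.p. ASC (median 52.98), from 32.64 to 61.08 TPM after i.v. ASC (median 45.36), and stood at 35.02, 46.22, 61.47 and 62.11 TPM after ASC-derived CM. No treated rat exceeded the highest untreated rat in Tap1 or Tap2, and 3 of the 6 i.v. ASC rats lay below all untreated rats in both.

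**Figure D1:**
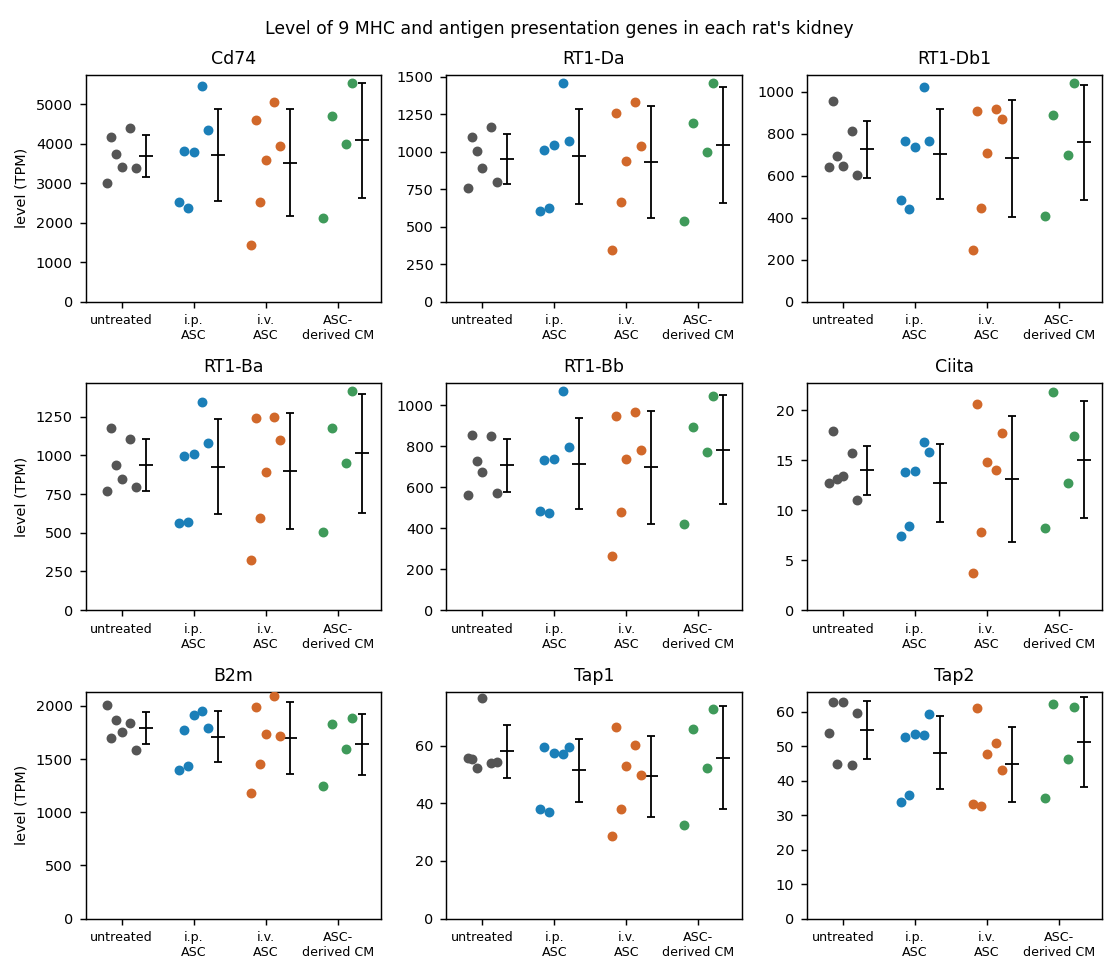
Level of the 9 genes in TPM (vertical axes, linear and starting at 0) in each rat, by treatment group; each point is a rat, and the bar to the right of each group is the mean with its SD. Treated groups overlap the untreated rats in every gene and have a larger SD of TPM, though not always a wider range. Cd74 ran from 1429 to 5048 TPM in the i.v. ASC group against 2992 to 4401 TPM in untreated rats.

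The treatment comparison asked whether the human cells or their medium shifted these genes away from the untreated kidneys. All 3 comparisons use the same 6 untreated rats. None of the 9 genes passed the threshold (edgeR quasi-likelihood test, adjusted p under 0.05) in the i.p. ASC comparison, where 0% of the 12867 genes tested did. The same held after i.v. ASC (0% of all genes) and after ASC-derived CM (0% of all genes). At an unadjusted p under 0.05 the members again gave 0 in each comparison, against 3.89%, 8.81% and 6.6% of all genes, and limma called 0 of them as well, as of all genes. DESeq2 also called 0 of the 9, while over all genes it called 0 after i.p. ASC, 28 after i.v. ASC and 5 after ASC-derived CM.

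Cd74 differed from untreated rats by a log2 fold change of 0.09 (SE 0.24, 95% interval -0.42 to 0.60) after i.p. ASC, of 0.05 (SE 0.24, -0.46 to 0.56) after i.v. ASC and of 0.18 (SE 0.27, -0.39 to 0.74) after ASC-derived CM. As folds, the intervals ran from 0.747 to 1.51, from 0.728 to 1.47 and from 0.764 to 1.67, so the group sizes leave room for a change of about that size either way. The class II chains had log2 fold changes of 0.03 (RT1-Db1) to 0.10 (RT1-Da) after i.p. ASC, of 0.02 to 0.08 after i.v. ASC and of 0.09 to 0.18 after ASC-derived CM, each with an SE of 0.25 to 0.30. Ciita stood at -0.05 (SE 0.28), -0.02 (SE 0.28) and 0.15 (SE 0.31) in the same order, with adjusted p of 0.967, 0.983 and 0.965 (edgeR).

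B2m had the narrowest intervals of the 9 genes, with log2 fold changes of 0.02 (SE 0.12, 95% interval -0.24 to 0.27) after i.p. ASC, 0.02 (SE 0.12, -0.23 to 0.28) after i.v. ASC and -0.08 (SE 0.14, -0.36 to 0.20) after ASC-derived CM. Tap1 stood at -0.09 (SE 0.17), -0.13 (SE 0.17) and -0.0040 (SE 0.19). Tap2 stood at -0.09 (SE 0.13) after i.p. ASC and -0.04 (SE 0.15) after ASC-derived CM. Its value after i.v. ASC, -0.18 (SE 0.13, 95% interval -0.46 to 0.10, edgeR adjusted p = 0.575), was the largest in size among the class I genes. These intervals bound the differences and do not show that the groups were alike.

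Exact permutation tests over rats on log2(TPM + 1) gave no p under 0.05 in 36 tests, the 9 genes in the 3 comparisons and in i.p. against i.v. ASC. The smallest was 0.11 for Tap2 after i.v. ASC (two-sided exact test, 6 against 6 rats, smallest p possible 0.00216). With 4 ASC-derived CM rats the smallest p possible was 0.00952. On this scale the median gene of all tested itself stood at -0.10, -0.12 and -0.07 against untreated rats after i.p. ASC, i.v. ASC and ASC-derived CM, and Cd74 stood at -0.04, -0.17 and 0.08. The mean TPM of Cd74 after i.p. ASC, 3712, was still above the 3679 of untreated rats, so the sign of these small differences depended on the scale and on the way of averaging, and which of the 2 mattered was not tested. Between the routes, i.p. against i.v. ASC, 0 of the 9 genes passed (0% of all genes), 0 of 9 had an unadjusted p under 0.05 (2.18% of all genes), and their log2 fold changes ran from -0.04 to 0.09. In the test for any difference among the 4 groups 0 of the 9 passed, against 0.0855% of all genes, and 0 of 9 had an unadjusted p under 0.05, against 4.11%.

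**Figure D2:**
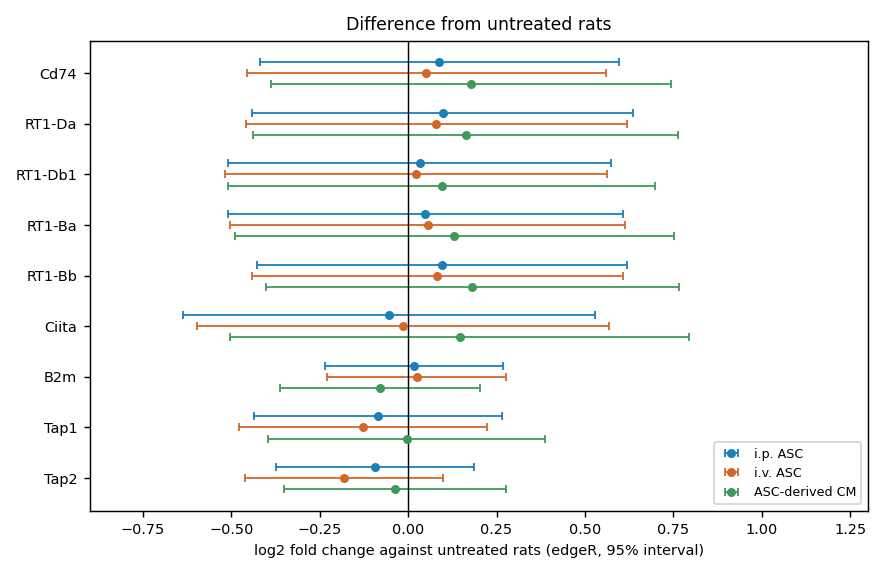
Log2 fold change of each gene against untreated rats (horizontal axis, edgeR estimate with its 95% interval), with a line for each treated group. All intervals include 0, and they are widest for Ciita (-0.50 to 0.79 after ASC-derived CM) and narrowest for B2m (-0.24 to 0.27 after i.p. ASC).

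Rats within a group differed widely. The SD of Cd74 within groups, on the log2 CPM scale, was 0.47, the 80.4th percentile of all genes tested, whose median SD was 0.23. RT1-Da (0.50), RT1-Db1 (0.51), RT1-Ba (0.52), RT1-Bb (0.48) and Ciita (0.56) lay between the 81.8th and the 87.4th percentile. B2m (0.21), Tap2 (0.25) and Tap1 (0.32) lay at percentiles 45.5, 54.1 and 65.1. In untreated rats the SD of Cd74 was 0.22, after i.p. ASC 0.38, after i.v. ASC 0.69 and after ASC-derived CM 0.45. The SD was above that of untreated rats in 8 of the 9 genes after i.p. ASC, in 9 of 9 after i.v. ASC and in 8 of 9 after ASC-derived CM, the exception being B2m. Among all genes tested it was above in 70.4%, 73.8% and 65.5%, so a wider spread in the treated groups was common to most genes.

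The low end belonged to the same animals throughout. On the TPM scale i.v. ASC rats 3 and 9, i.p. ASC rats 5 and 7 and ASC-derived CM rat 2 were the 5 lowest rats in each of the 9 genes, and no untreated rat was among them. Of all genes tested 9.09% had these same 5 rats lowest. On the log2 CPM scale 6 of the 9 genes kept all 5 and B2m kept 3, against 5.05% of all genes with all 5. Cd74 stood at 1429 TPM in rat 3, 2108 in rat 2, 2366 in rat 7, 2515 in rat 5 and 2534 in rat 9. Their summed macrophage markers were 267.4, 440.6, 464.5, 420.0 and 479.4 TPM in that order, against a median of 705.4 TPM over all rats, and the 5 were also the lowest rats in the mean of the macrophage and of the dendritic cell list. Of the 5 lowest rats in the T cell, B cell, leukocyte and endothelium lists 4 were among them, in the plasma cell list 3, in the urothelium list 1 and in the class I heavy chain sum 2. The proximal tubule, erythrocyte and kidney lists had 0 of them among their 5 lowest, and the summed proximal tubule markers of the 5 stood at 2111, 1724, 1731, 2072 and 1289 TPM, all above the median of 1176 TPM. Their total counts ranked between 12th and 19th of 22 from the lowest, so they were not the shallow libraries. They held the 5 highest values of the surrogate variable that sva drew from all genes, and their animal numbers, 2 to 9, are among the lowest. The same span of numbers held i.p. ASC rat 6 and i.v. ASC rat 8, at 5450 and 5048 TPM for Cd74. These rats ranked 21st and 20th of 22 from the lowest. Whether the marker levels, the surrogate variable or the animal number have a part in the low levels was not tested.

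Without i.v. ASC rat 3, the lowest in 8 of the 9 genes, the i.v. ASC log2 fold change of Cd74 was 0.22 in place of 0.05 and that of RT1-Da 0.25 in place of 0.08, and 0 of the 9 genes passed the threshold. Cd74 had a Pearson's r of 0.521 with the animal number (permutation p = 0.012, Spearman's rho 0.404, p = 0.0637), and r was 0.327 without the 2 rats farthest from the median Cd74. What the numbers stand for beyond naming a rat is not given, and with the number as a covariate 0 of the 9 genes passed.

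Over all 22 rats the members rose and fell together. Among Cd74 and the 4 class II chains the 10 pairs had r from 0.979 to 0.996 over 22 rats on log2(TPM + 1), with Spearman's rho from 0.958 to 0.994. Each had a permutation p of 1e-05, the smallest that 100000 permutations can give. Ciita followed them with r from 0.921 to 0.955. B2m, Tap1 and Tap2 followed the class II genes less closely, with r from 0.731 (RT1-Bb with Tap2) to 0.883 (B2m with RT1-Ba). Tap1 and Tap2 had r = 0.915 with each other, and B2m had 0.869 with Tap1 and 0.749 with Tap2. All 36 pairs had an adjusted p under 0.05 for r and for rho, the largest being 0.00015 and 0.0126 (permutation tests, adjusted over the 36 pairs).

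Leaving out the 2 rats farthest from the median kept r within the class II group at 0.957 or above, while the pairs of class II with class I genes fell to 0.634 to 0.781. After each group's mean was subtracted, the 36 pairs had r from 0.753 to 0.996. Without rats 1, 10 and 24 the median r of the 36 pairs was 0.938 in place of 0.878, and B2m with RT1-Da had r = 0.951 over 19 rats in place of 0.882. Within the 6 untreated rats the 15 pairs of B2m, Tap1 or Tap2 with Cd74 or a class II chain all had a negative r. They ran from -0.394 (RT1-Da with Tap2) to -0.025 (B2m with RT1-Db1 and with RT1-Bb), with Cd74 and B2m at -0.204. The same pairs had 0.873 to 0.97 in the i.p. ASC and 0.832 to 0.988 in the i.v. ASC rats. In untreated rats B2m had -0.111 with Tap1 and -0.556 with Tap2, and Tap1 had 0.549 with Tap2. Cd74 and the class II chains kept 0.82 to 0.986 there. These are relations over rats, and the treatment groups contribute 4 to 6 points each. Rats 1 and 24, set apart above, are among the 6 untreated rats, and r within that group was not computed without them. Of the untreated rats, rat 1 had the lowest Cd74 (2992 TPM) and the highest B2m (2008 TPM). Whether r differs between untreated and treated rats was not tested.

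**Figure D3:**
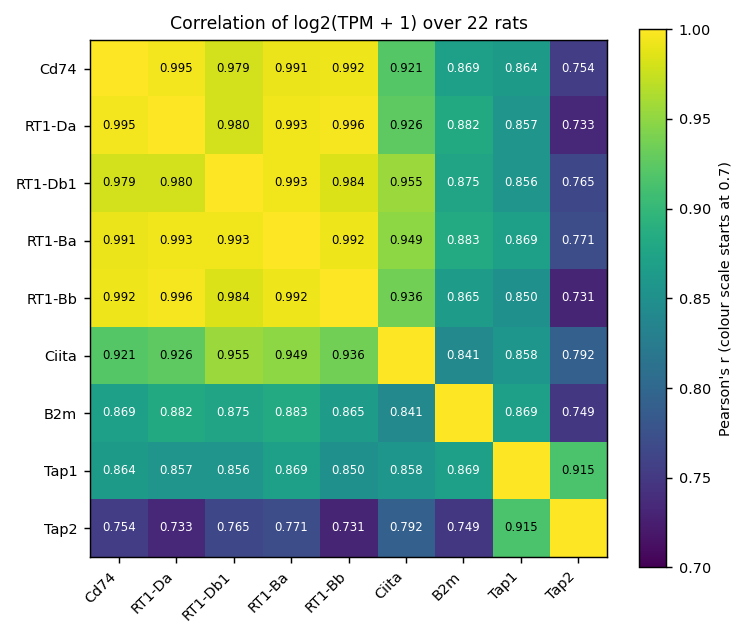
Pearson's r of log2(TPM + 1) over 22 rats for each pair of the 9 genes (colour scale from 0.7 to 1). Cd74 and the 4 class II chains form a block at 0.979 or above, Ciita joins it at 0.921 to 0.955, and Tap2 has the lowest values, down to 0.731.

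The steadiness of this block shows in ratios. Cd74 stood at 3.64 to 4.24 times RT1-Da in every rat, a coefficient of variation (CV) of 4.14%, although Cd74 itself varied with a CV of 28.9%. RT1-Da over RT1-Ba varied with a CV of 4.42%, RT1-Ba over RT1-Bb with 5.48% and RT1-Da over RT1-Db1 with 6.86%. Without rats 1, 10 and 24 these 3 CVs were 3.02%, 5.05% and 4.29%, and that of Cd74 over RT1-Da was 4.39%. Against Ciita the RT1-Da ratio had a CV of 15.6%, and against B2m of 21.1%, from 0.294 in its lowest rat to 0.775 in its highest. Tap1 over Tap2 had a CV of 9.84%.

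**Figure D4:**
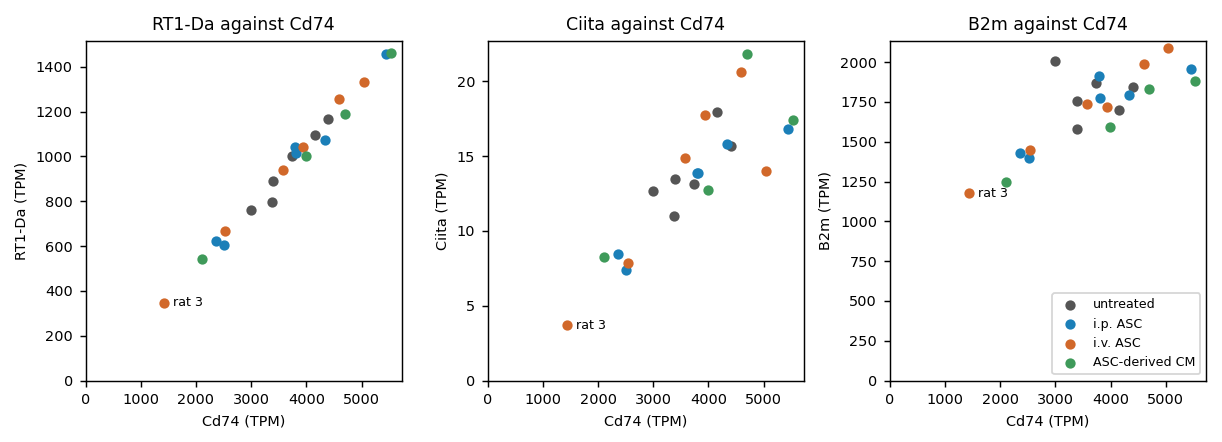
RT1-Da, Ciita and B2m (vertical axes, TPM) against Cd74 (horizontal axes, TPM) in each of 22 rats, coloured by group; all axes start at 0. RT1-Da lies on a nearly straight line with Cd74 from i.v. ASC rat 3 (1429 and 346.6 TPM) to ASC-derived CM rat 21 (5531 and 1460 TPM), while B2m spans only 1177 to 2089 TPM.

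Among all genes tested, the class II partners were also the nearest to Cd74 in group-centred log2 CPM. RT1-Da and RT1-Bb (r = 0.994 each) ranked first and second of 12866 genes, RT1-Ba (0.987) the third and RT1-Db1 (0.981) the sixth, and Ciita (0.955) ranked 63rd. The median gene had r = 0.03 with Cd74. The 10 genes outside the list nearest to Cd74 were Laptm5 (r = 0.984), Unc93b1 (0.984), Naaa (0.98), Irf5 (0.979), Itgb7 (0.976), Coro1a (0.975), Pycard (0.974), Ctsz (0.974), Glipr1 (0.973) and Evi2b (0.972). Laptm5 and Coro1a are markers of leukocytes at large and were on the leukocyte list used here, Unc93b1 escorts toll-like receptors to the endosome, and Irf5 is an interferon regulatory factor of myeloid cells. Among the 5 nearest to B2m were Tmsb10 (r = 0.944), the interferon gamma receptor chain Ifngr2 (0.939), Rbm3 (0.933) and the immunoproteasome subunit Psmb9 (0.932). For Tap1 the 5 nearest were LOC100910973 (0.956), Slfn2 (0.944), Cyp7b1 (0.942), Hopx (0.941) and Serpinb9 (0.941). With B2m and Tap1 the first 5 places were held by genes outside the list, unlike with Cd74.

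Marker lists of immune cells moved with Cd74. Its r over 22 rats was 0.966 with the mean of 7 dendritic cell genes, 0.947 with 9 macrophage genes, 0.956 with 4 genes of all leukocytes and 0.938 with 7 T cell genes, each with a permutation p of 1e-05 and with rho from 0.877 to 0.958. It was 0.746 with 5 B cell genes (p = 0.00013, rho 0.752) and 0.631 with 3 plasma cell genes (p = 0.00182, rho 0.66). With the proximal tubule list r was -0.365 (permutation p = 0.0942, rho -0.313) and with the erythrocyte list -0.083 (p = 0.712, rho 0.069). The endothelium list had r = 0.555 (p = 0.00668, rho 0.394), and the urothelium list r = -0.518 (p = 0.0159) with rho at -0.15 (p = 0.506). The p of r with the 6 immune lists stayed under 0.05 when adjusted over this family of 12 relations. So did the p of r with the endothelium list, the urothelium list and the animal number. Without the 2 rats farthest from the median Cd74, r was 0.936 for the dendritic cell and 0.913 for the macrophage list. It was 0.88 for the T cell and 0.559 for the B cell list. No defining marker of dendritic cells, macrophages, B cells or T cells was at 0 in any rat. The mean of the leukocyte list ran from 6.40 to 7.21 log2 CPM in untreated rats, 6.24 to 7.60 after i.p. ASC, 5.16 to 7.36 after i.v. ASC and 6.35 to 7.32 after ASC-derived CM. None of the immune marker genes passed the threshold in any comparison with untreated rats. The part of these cells in the class II levels was not tested.

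Of the 15 partners of the class II route, 0 passed the threshold in each treated group, with a median log2 fold change of 0.03, -0.04 and 0.07 after i.p. ASC, i.v. ASC and ASC-derived CM against -0.01, -0.01 and -0.0029 over all genes. At an unadjusted p under 0.05 the i.p. ASC comparison gave 1 of the 15, against 3.89% of all genes tested. It was Cd80, a costimulatory ligand of antigen presenting cells, at -0.81 (SE 0.28, edgeR adjusted p = 0.771). Cd80 had a mean of only 18.86 reads a rat. The peptide editors RT1-DMa and RT1-DMb, which swap the Cd74 fragment for peptide, and their modulators RT1-DOa and RT1-DOb had group-centred r with Cd74 of 0.961, 0.969, 0.92 and 0.938. Ctss, the cathepsin that cuts Cd74 in antigen presenting cells, had 0.936. Ctsl, a cathepsin that thymic epithelium uses for the same step, had -0.421 and Lgmn 0.152, and both are abundant in kidney at means of 1753 and 487.4 TPM. After Cd80 the smallest p in that comparison belonged to RT1-Db2 at 0.51 (SE 0.29) and Ctsl at 0.29 (SE 0.20). After ASC-derived CM it belonged to Ctsd, a lysosomal protease, at -0.40 (SE 0.20, edgeR adjusted p = 0.711), followed by RT1-Db2 at 0.42 (SE 0.32) and RT1-DMa at 0.19 (SE 0.22). After i.v. ASC it belonged to RT1-Db2 at 0.55 (SE 0.29, edgeR adjusted p = 0.523), followed by Ctsl at 0.26 (SE 0.20) and Ifi30, a reductase of the endosome, at 0.11 (SE 0.11). Between the routes, i.p. against i.v. ASC, Cd80 stood at -0.68 (SE 0.29), Cd40 at -0.18 (SE 0.22) and Lgmn at 0.11 (SE 0.17).

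Of 42 class I partners in the files 41 were tested and 0 passed in each treated group, with medians of 0.03, -0.01 and 0.03 in the same order. RT1-CE8 and RT1-CE9 were not analysed here. The i.v. ASC comparison gave 1 of the 41 genes at an unadjusted p under 0.05, against 8.81% of all genes tested. It was Cd1d1, a lipid presenting relative of class I, at -0.27 (SE 0.12, edgeR adjusted p = 0.523). Next came RT1-T24-3 at -0.63 (SE 0.34) and RT1-CE1 at -0.32 (SE 0.20). Cd1d1 also had the smallest p after ASC-derived CM, at -0.25 (SE 0.14), before the peptide trimmer Erap1 at -0.17 (SE 0.11) and RT1-A3 at 0.34 (SE 0.23). The smallest p after i.p. ASC belonged to Mr1, which presents vitamin metabolites, at -0.33 (SE 0.19, edgeR adjusted p = 0.771), before Psme3 at 0.10 (SE 0.06) and Tapbpl at -0.20 (SE 0.13). Between the routes RT1-T24-3 stood at 0.53 (SE 0.35), RT1-T24-1 at 0.49 (SE 0.35) and RT1-CE6 at 0.21 (SE 0.18). Single RT1 values are uncertain where reads were shared out. The immunoproteasome subunits Psmb8, Psmb9 and Psmb10 had group-centred r with Tap1 of 0.897, 0.923 and 0.867, the loading chaperone Tapbp 0.859, and its relative Tapbpl 0.888. The general chaperones Calr and Canx had -0.528 and -0.787, and the proteasome activator Psme3, unlike its interferon-inducible relatives Psme1 (0.66) and Psme2 (0.681), had -0.743.

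Of 18 genes for the transcription of MHC genes 17 were tested and 0 passed in each treated group, with medians of -0.05, -0.07 and 0.01. Nlrc5 was not analysed here. The RFX subunits that bind the X box differed in their relation to Cd74, with group-centred r of 0.67 for Rfx5, 0.58 for Rfxap and -0.12 for Rfxank, and the Y box factors Nfya, Nfyb and Nfyc had -0.089, 0.247 and 0.103. The myeloid factors Spi1 (0.927) and Irf8 (0.896) and the receptor chains Ifngr1 (0.924) and Ifngr2 (0.932) were close to Cd74, and Irf1 stood at 0.825. The smallest p values belonged to Creb1 after i.p. ASC (-0.39, SE 0.21), Rfx5 after i.v. ASC (-0.15, SE 0.10) and Nfyb after ASC-derived CM (-0.12, SE 0.08), with edgeR adjusted p of 0.771, 0.541 and 0.816. Next after i.p. ASC came the receptor kinase gene Jak2 (-0.18, SE 0.11) and Rfx5 (-0.13, SE 0.10), after i.v. ASC Jak2 (-0.16, SE 0.11) and Nfya (-0.23, SE 0.16), and after ASC-derived CM Rfxank (0.09, SE 0.08) and Creb1 (-0.19, SE 0.23). Between the routes Nfyc stood at -0.05 (SE 0.05), Socs1 at 0.17 (SE 0.20) and Creb1 at -0.12 (SE 0.21). Ifng itself was close to absent, with a mean of 0.2032 TPM.

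Of 12 interferon gamma targets outside the MHC 11 were tested and 0 passed. Their median log2 fold change was -0.17 after i.p. ASC, -0.09 after i.v. ASC and -0.02 after ASC-derived CM, with 10, 9 and 6 of 11 below 0, while 46.2%, 47.5% and 49.1% of all genes were above 0. The guanylate binding protein gene Gbp2 stood at -0.31 (SE 0.17), -0.35 (SE 0.17) and -0.22 (SE 0.19), with edgeR adjusted p of 0.771, 0.523 and 0.863. The chemokine gene Cxcl9 had the smallest p after i.p. ASC, at -0.59 (SE 0.29, edgeR adjusted p = 0.771). The immunity GTPase gene Igtp stood at -0.22 (SE 0.13) after i.p. and -0.23 (SE 0.13) after i.v. ASC, its relative Irgm at -0.27 (SE 0.20) after i.v. ASC, and the chemokine gene Cxcl10 at 0.27 (SE 0.25) after ASC-derived CM. Between the routes Cxcl9 stood at -0.52 (SE 0.29), Gbp4 at -0.18 (SE 0.23) and Cxcl11 at 0.13 (SE 0.19). Group-centred r was higher with Tap1 than with Cd74 in 9 of the 11 targets, with a median of 0.784 against 0.57. It was 0.784 and 0.574 for Gbp2, 0.808 and 0.631 for Gbp5, and 0.876 and 0.825 for Irf1. The exceptions were Psmb10 (0.867 and 0.911) and Cxcl11 (-0.047 and 0.044). In the other lists r was higher with Tap1 in 32 of 41 class I partners, 9 of 17 genes for transcription and 1 of 15 class II partners. The median of all genes tested was 0.066 with Tap1 and 0.032 with Cd74, and their share with a higher r was not computed. These are values over the same 22 rats, with no test of the difference.

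The class I heavy chains, the partners of B2m on the cell surface, set 3 rats apart. The summed level of the 17 RT1-A and RT1-CE genes was 1009, 911 and 1001 TPM in untreated rat 1, i.v. ASC rat 10 and untreated rat 24, and 1191 to 2426 TPM in the other 19 rats. RT1-A1 alone stood at 94.05, 90.95 and 84.72 TPM in these 3 rats and at 158.5 to 331.4 TPM in the others. RT1-A2 ran from 104.3 to 123.3 TPM against 166.6 to 326.1 TPM, and RT1-CE11 was under 0.01 TPM in all 3, as in 5 of the other 19 rats. These single-gene values rest on reads that were shared out between near-identical genes, and the same 3 rats were also lowest in the sum. Their B2m was not low, at 2008, 1719 and 1702 TPM, so that the heavy chain sum was 0.503, 0.530 and 0.588 times B2m against 0.874 to 1.32 times in the others.

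The same 3 rats had the lowest ratios of RT1-Da over RT1-Db1, at 1.18, 1.20 and 1.14 against 1.25 to 1.49 in the other 19, and the lowest of RT1-Da over RT1-Ba, at 0.932 to 0.981 against 0.997 to 1.12. Their Cd74 over RT1-Da, 3.79 to 3.94, lay inside the range of the others, 3.64 to 4.24. These rats were noticed after the values were seen and belong to 2 groups, so no group difference was drawn from them. Without them 0 of the 9 genes passed in each comparison, and the log2 fold changes of Cd74 were 0.08, 0.0009 and 0.17 after i.p. ASC, i.v. ASC and ASC-derived CM. Those of RT1-Db1 were 0.12, 0.02 and 0.18 in place of 0.03, 0.02 and 0.09. Over the 9 genes they ran from -0.14 (Tap1) to 0.12 (RT1-Db1) after i.p. ASC, from -0.18 (Tap1) to 0.04 (RT1-Bb) after i.v. ASC and from -0.06 (B2m) to 0.18 (RT1-Ba) after ASC-derived CM. The relation with the heavy chain sum is given only without these 3 rats, set apart by RT1-A1, which is part of that sum. Over the other 19 rats the sum had r = 0.841 with B2m (permutation p = 7e-05, rho 0.772) and 0.816 with Cd74 (p = 9e-05, rho 0.746). With Tap1 it had 0.754 (p = 0.00036, rho 0.533). Without the 2 rats farthest from the median, r was 0.777 with B2m, 0.791 with Cd74 and 0.631 with Tap1. As the 3 rats were chosen through a part of the sum, these p values do not test the relation over all rats. With all rats kept, single heavy chain genes had group-centred r with Cd74 from -0.221 (RT1-CE11) to 0.651 (RT1-CE15). RT1-A1 stood at 0.254.

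**Figure D5:**
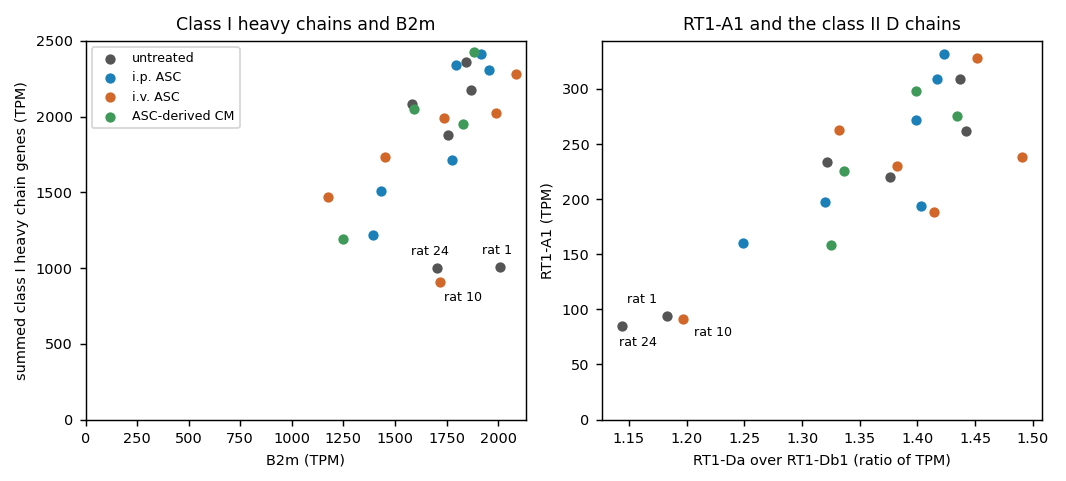
Left, the summed level of 17 class I heavy chain genes (TPM) against B2m (TPM); right, RT1-A1 (TPM) against the ratio of RT1-Da to RT1-Db1, whose axis does not start at 0; each point is a rat, coloured by group. Rats 1, 10 and 24 lie apart in both panels, with a heavy chain sum of 911 to 1009 TPM at a B2m of 1702 to 2008 TPM, and with ratios of 1.14 to 1.20.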

How the data were processed

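Kidney RNA of 22 rats was used, grouped by the labels, which give each rat its own number, so replicates are separate animals. Per the submitters' processing notes, reads were trimmed with Trim Galore 0.6.4 and quantified with kallisto 0.4.6, and the build named is rn6. The authors deposited an estimated count per Entrez gene, not normalized, and a TPM value (reads per transcript length, scaled to a common total). How they summed transcripts into genes is not given in the sources used here. Here 13.2% of the counts were not whole (tolerance 0.001), and all were rounded. Symbols came from RefSeq for 17179 of 17334 genes, used for names only, and promoters from its GRCr8 table.

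Differences were tested with the quasi-likelihood F test of edgeR 4.0.16 over 12867 genes, in a single fit of the 4 groups with TMM size factors, genes kept by filterByExpr and a prior count of 2. Adjustment followed Benjamini-Hochberg with 0.05 as threshold, and the fit was checked on simulated counts. The standard error is the log2 fold change over the root of F. DESeq2 1.42.0, limma 3.58.1 and a surrogate variable from sva 3.50.0 were alternatives. Single genes were also tested by two-sided exact permutation of log2(TPM + 1), and correlations by 100000 permutations. Text names all 9 members, the 3 partners with the smallest p in each list and comparison, and the genes most like Cd74 (10), Tap1 (5) and B2m (5), apart from some genes that are not reported here. The members and lists were chosen with earlier results of these data known. The 3 rats set apart by RT1-A1, the 5 lowest rats and the values given for further genes of the lists were picked after values were seen. At 12195682 to 14734772 reads a rat, counting error is small beside the spread between rats for the 9 genes. Their mean counts ran from 715.4 (Ciita) to 36760 (Cd74). It weighs more in genes with few reads, such as Cd80 (mean 18.86), RT1-Db2 (29.33) and Mr1 (35.18).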

Additional observations from a re-analysis of the deposited data

Results flagged for a closer look

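Tap1 in untreated rat 23 stood at 76.3 TPM, apart from the other 5 untreated rats, whose highest was 55.52 TPM. The gap to the nearest rat was 0.861 of the whole range of the group, past the limit for 6 samples. The 9 genes were checked in 4 groups, 36 checks in all, and chance alone sets about 1 in 20 such groups apart. Tap2 was also highest in this rat, at 62.78 TPM, but only just above untreated rat 24, at 62.73 TPM. Cd74 in rat 23 was 3397 TPM, inside the range of its group.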

How the results depend on the processing

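Under every alternative run, 0 of the 9 genes passed the threshold in any comparison, by edgeR with other size factors or filters, by DESeq2 and by limma. Over all genes DESeq2 called 28 after i.v. ASC, 5 after ASC-derived CM and 24 in i.p. against i.v. ASC, the fit with a surrogate variable called 4 between the routes, and the fit of 2 groups called 1 after ASC-derived CM, where edgeR with all 4 groups called 0. The smallest adjusted p of the 9 genes against untreated rats in any of these fits, left-out rats included, was 0.349. Of 243 log2 fold changes against untreated rats that used another setting, 31 had the opposite sign, and the smallest unadjusted p in any of these fits was 0.0339, for Tap2 after ASC-derived CM with a surrogate variable (edgeR adjusted p = 0.698). With 1 surrogate variable in the fit Tap1, Tap2 and Ciita stood at 0.086, 0.058 and 0.18 after i.p. ASC and at 0.067, 0.0065 and 0.24 after i.v. ASC, and B2m, Tap1 and Tap2 at 0.028, 0.18 and 0.14 after ASC-derived CM. With limma on log2(TPM + 1) Cd74, B2m, RT1-Da, RT1-Db1, RT1-Ba and RT1-Bb stood at -0.035, -0.075, -0.025, -0.084, -0.073 and -0.022 after i.p. ASC and at -0.17, -0.10, -0.14, -0.21, -0.19 and -0.13 after i.v. ASC. With the animal number as a covariate, an alternative chosen after seeing the data, Tap1, Tap2 and Ciita stood at 0.031, 0.0083 and 0.098 after i.p. ASC, Tap1 and Ciita at 0.017 and 0.16 after i.v. ASC, and Tap1 and Tap2 at 0.037 and 0.011 after ASC-derived CM. Tap1 after ASC-derived CM, at -0.0040, was 0.0063 with RLE size factors, 0.0069 with only the 2 groups in the fit and 0.0063 with DESeq2. The cause of these turns was not tested. The fit without the 3 rats lowest in RT1-A1, also added after seeing the data, turned no sign.

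Leaving out 1 rat at a time gave 306 values, 44 of them with the opposite sign. After i.p. ASC they ran from -0.069 to 0.17 for Cd74, -0.046 to 0.054 for B2m, -0.070 to 0.18 for RT1-Da, -0.12 to 0.12 for RT1-Db1, -0.099 to 0.14 for RT1-Ba, -0.077 to 0.18 for RT1-Bb and -0.19 to 0.053 for Ciita. After i.v. ASC they ran from -0.093 to 0.22 for Cd74, -0.068 to 0.10 for B2m, -0.063 to 0.25 for RT1-Da, -0.096 to 0.20 for RT1-Db1, -0.070 to 0.23 for RT1-Ba, -0.057 to 0.25 for RT1-Bb and -0.13 to 0.17 for Ciita. After ASC-derived CM they ran from -0.049 to 0.25 for RT1-Db1, -0.015 to 0.30 for RT1-Ba, -0.15 to 0.15 for Tap1, -0.12 to 0.064 for Tap2 and -0.017 to 0.32 for Ciita. The median r of the 36 pairs was 0.774 without the 2 rats farthest from the median, against 0.878 over all rats, 0.907 with group means subtracted, 0.844 on log2 CPM and 0.878 on log2(TPM + 0.1). No paired analysis was possible because the groups hold different rats with different numbers.

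With 4 to 6 rats a group, a fold in Cd74 between 0.747 and 1.51 after i.p. ASC lies inside the 95% interval. The untreated rats serve all 3 comparisons, so their values enter each of them. Levels of single class I heavy chain genes are uncertain, because their reads were divided among near-identical genes, and the counts do not show from which RT1 alleles the reads came.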
